A study of Homo sapiens with 3 samples.

Results

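Among the D8 cells of chambered cardiac organoids (CCOs), 230 of 2657 carried the transcript of titin (TTN) with almost none of cardiac troponin T (TNNT2). These cells, called the members here, made up 8.66% of the D8 cells kept, with an exact Clopper-Pearson 95% interval of 7.61% to 9.79%. They were picked with measured values. A member had at least 5 unique molecular identifiers (UMIs, 1 per captured mRNA molecule) of TTN and at most 1 of TNNT2. TNNT2, MYH6, MYL7 and TTN together took under 0.5% of its UMIs, and the 6 cycling genes MKI67, TOP2A, CENPF, TPX2, NUSAP1 and UBE2C together took under 8 per 10000. The levels of these 10 genes are therefore given as a description of the choice. The limits name no cell type, and TTN is the only gene required to be present, so no cell type name was given to the members.

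The CCOs were grown from H7, a line of human embryonic stem cells, differentiated with the GSK inhibitor CHIR99021 and then the WNT inhibitor IWP-2. Dissociated cells were reseeded in Matrigel in a growth medium (CGM) with B27, thrombin, cardiotrophin-1, EGF, FGF-2, Wnt-3A and EDN1, and organoids were dissociated for Chromium 3′ droplet libraries at D8, D14 and D21. All groups compared below are cells of the same D8 library and share this line and these agents. There was 1 library per day, a day cannot be told apart from its library, and cells of 1 library are not replicates, so no test was made and no replicate error can be given.

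Titin is a giant protein that spans the sarcomere, the contractile unit of striated muscle, from the Z-disc to the M-band. It works as a molecular spring and as a scaffold along which the thick filament is laid out. Troponin T belongs to the thin filament, where it anchors the troponin complex to tropomyosin. Sarcomere genes are switched on as mesodermal progenitors become cardiomyocytes (CMs), downstream of factors such as NKX2-5, GATA4, MEF2C and myocardin.

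The members were set beside 3 other groups of D8 cells. Four-gene-high cells (332) had 0.5% or more of their UMIs from TNNT2, MYH6, MYL7 and TTN. Titin-low cells (1294) met the limits of the members except that they had at most 4 TTN UMIs. TNNT2-positive cells (318) met the limits of the members except that they had at least 2 TNNT2 UMIs. The median depth was 15334.5 UMIs in members, 14394 in four-gene-high cells, 14232 in titin-low cells and 16456 in TNNT2-positive cells. As a reference for RNA that may be free in droplets, 294 EPCAM cells were used, with a median of 25316.5 UMIs. They had at least 5 UMIs of the epithelial gene EPCAM and under 0.5% of their UMIs from TNNT2, MYH6, MYL7 and TTN. Members were left out of them. The limit on the summed share caps the levels of these 4 genes in EPCAM cells, and no empty droplets were measured. Of the EPCAM cells, 189 were also titin-low cells, 8 were TNNT2-positive cells and 80 were over the limit on cycling genes. Levels are UMIs summed over the cells of a group per 1000000 UMIs (CPM), from 3′ tags with no correction for length. Their 95% intervals are exact Poisson intervals and cover counting error only.

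A member held 5 to 78 TTN UMIs, with a median of 12, and a median of 7.95 per 10000. Four-gene-high cells had a median of 53 TTN UMIs and TNNT2-positive cells one of 21.5. Summed, TTN stood at 937 CPM in members, 3650.5 CPM in four-gene-high cells, 1401 CPM in TNNT2-positive cells, 35.4 CPM in titin-low cells and 44.9 CPM in EPCAM cells. The TTN level of the members was thus 26.4-fold that of titin-low cells and 3.90-fold under that of four-gene-high cells. TNNT2 stood at 24.0 CPM in members, beside 28.0 CPM in EPCAM cells, 13.7 CPM in titin-low cells, 538 CPM in TNNT2-positive cells and 2511 CPM in four-gene-high cells. No TNNT2 UMI was found in 139 members and 1 UMI in the other 91. MYH6, the myosin heavy chain of the early heart tube, was at 77.5 CPM in members against 1573 CPM in four-gene-high cells and 8.06 CPM in EPCAM cells. MYL7, the atrial-type regulatory light chain, was at 206 CPM against 3987 CPM and 49.7 CPM.

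**Figure D1:**
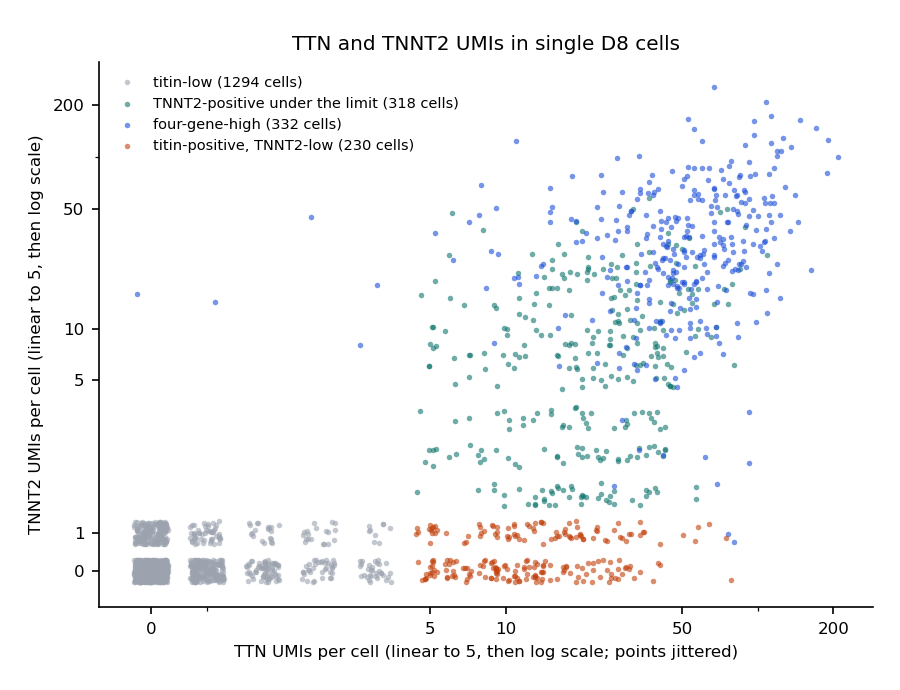
Each point is 1 D8 cell, with its TTN UMIs on the x axis and its TNNT2 UMIs on the y axis, both linear up to 5 and on a log scale above, with a small jitter. Colours mark the 4 groups, and the members fill the band at 0 or 1 TNNT2 UMI from 5 to 78 TTN UMIs.

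The members are a range of cells and not a separate cloud. Of the 958 D8 cells with at least 5 TTN UMIs, 272 had at most 1 TNNT2 UMI, 270 of these were under the limit on the summed share, and 230 were also under the limit on cycling genes. At the TTN limit, 44 members had 5 or 6 UMIs, while 96 cells with 3 or 4 UMIs met every other limit. TTN itself was at 348 CPM inside and 207 CPM outside this limit, and MEF2C at 289 and 160 CPM. At the TNNT2 limit, 46 cells with 2 UMIs met every other limit. Their TTN level was 1344 CPM, beside 1057 CPM in members with 1 TNNT2 UMI and 856 CPM in members with none. MYH6 stood at 217, 111 and 55.1 CPM in the same order, and ISL1 at 88.2, 142 and 141 CPM. At the limit on the summed share, 6 members lay between 0.4% and 0.5% and 1 cell lay between 0.5% and 0.6%. Of the 294 EPCAM cells, 12 reached 5 TTN UMIs. A barcode sequence also found in another library was carried by 2 members.

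After each cell had been thinned to 4000 UMIs, 93.9% of members still had a TTN UMI (216 of 230; upper limit of the exact 95% interval 96.6%), against 10.9% of EPCAM cells. No cell held fewer than 4000 UMIs, and without thinning the share was 100% by the rule. A TNNT2 UMI, limited by the rule to 1 per member, was seen in 11.3% of thinned members (7.52% to 16.1%) and in 7.48% of EPCAM cells (4.75% to 11.1%). Neither MYL7 nor MYH6 was seen in 50.4% of thinned members, in 84.5% of titin-low cells, in 86.7% of EPCAM cells and in 0.602% of four-gene-high cells.

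Other sarcomere genes were present in the members at very unequal levels. TNNI1, the slow skeletal troponin I that the fetal heart uses, stood at 769 CPM (741 to 797). That was 7.46-fold above the 103 CPM of titin-low cells and 5.34-fold below the 4106 CPM of four-gene-high cells. A TNNI1 UMI was found in 83.5% of thinned members (192 of 230), against 15.99% of EPCAM cells, 26.8% of titin-low cells and 100% of four-gene-high cells. TPM1, the tropomyosin of the thin filament, stood at 2635 CPM in members, 825 CPM in titin-low cells and 7393 CPM in four-gene-high cells. NEBL, which encodes the Z-disc protein nebulette, stood at 175 CPM (162 to 189) in members, 42.8 CPM in titin-low cells and 705 CPM in four-gene-high cells. MYL4, the atrial and fetal essential light chain, stood at 224 CPM (209 to 239) in members, 36.4 CPM in titin-low cells and 1895 CPM in four-gene-high cells. Each of these 4 genes lay between titin-low and four-gene-high cells, with intervals that did not meet.

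SMYD1 and UNC45B, both of the sarcomere list, were also higher than in titin-low cells. SMYD1, a muscle methyltransferase that acts with myosin chaperones, stood at 28.5 CPM (23.4 to 34.4) in members and 1.63 CPM in titin-low cells. UNC45B, a chaperone of myosin, stood at 26.6 CPM (21.7 to 32.4) in members and 1.87 CPM in titin-low cells. In four-gene-high cells they were at 127 and 109 CPM. Both were near 0 in EPCAM cells, at 0.722 and 1.20 CPM.

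A further set of heart muscle genes was low in members, at under 2 times the EPCAM level. TNNC1, cardiac troponin C, stood at 20.6 CPM (16.3 to 25.7) in members, 13.7 CPM in EPCAM cells and 400.1 CPM in four-gene-high cells. MYL3, the ventricular essential light chain, stood at 6.06 CPM in members, 3.25 CPM in EPCAM cells and 207 CPM in four-gene-high cells. MYBPC3, cardiac myosin-binding protein C, had a level of 1.05 CPM (0.287 to 2.70) in members and 33.4 CPM in four-gene-high cells. The natriuretic peptide gene NPPA stood at 4.75 CPM in members, 3.37 CPM in EPCAM cells and 165 CPM in four-gene-high cells.

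Cardiac actin needs a closer look. ACTC1 stood at 137 CPM in members, 52.3 CPM in titin-low cells, 70.1 CPM in EPCAM cells and 1905 CPM in four-gene-high cells. Of its 519 UMIs in members, 273 lay in 5 cells, with 104 and 100 in the highest pair, and 140 members had none. Without those 5 cells the level was 66.7 CPM. ACTA1, skeletal actin, had 54.6% of its UMIs in 5 members and stood at 57.5 CPM with them and 26.8 CPM without them, beside 27.7 CPM in titin-low cells. For TTN this share was 9.32%, for TNNI1 8.71%, for TPM1 7.38% and for NEBL 14.6%, and a UMI of TNNI1 was found in 218 members before thinning.

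**Figure D2:**
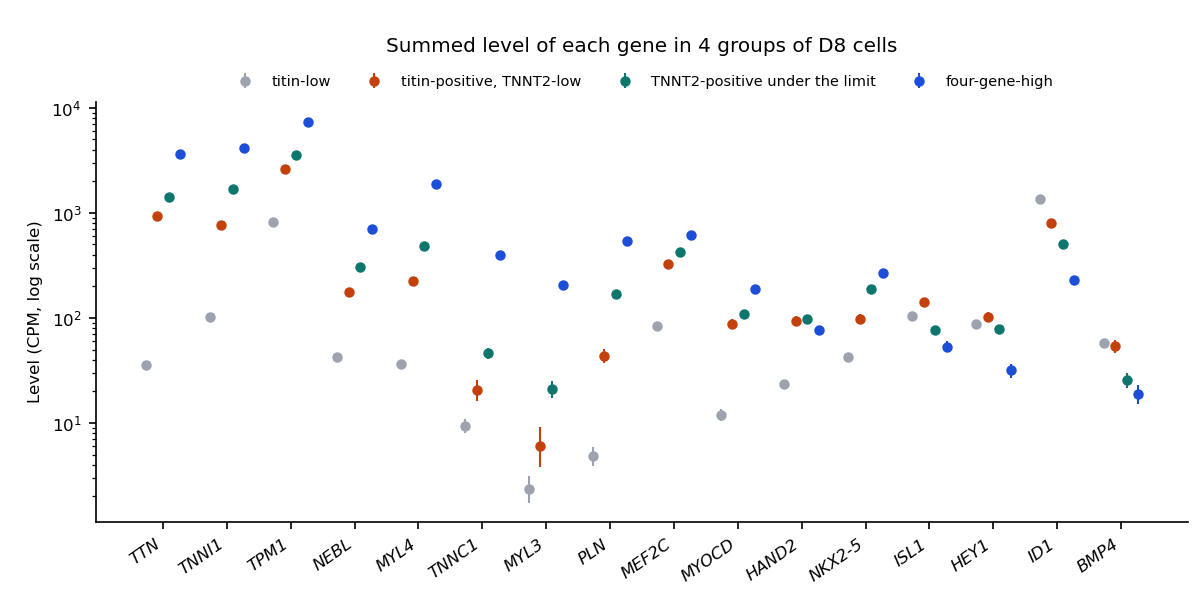
Summed level in CPM (log scale) of 16 genes in titin-low cells, members, TNNT2-positive cells and four-gene-high cells of D8, with exact Poisson 95% intervals that cover counting error only. TNNI1 stands at 103, 769, 1683 and 4106 CPM in this order of groups, whereas ISL1 is highest in the members at 141 CPM.

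Against four-gene-high cells, 5996 genes reached 20 CPM in at least 1 group, with the 10 genes of the rule and the mitochondrial genes left out. Of these, 325 (5.42%) were 2-fold or more apart with 1 UMI added to each sum, 232 (3.87%) lower and 93 (1.55%) higher in members. Of 33 sarcomere genes, 25 reached 20 CPM, 23 were 2-fold or more lower and 0 were higher, with a median log2 ratio of -2.42 beside -0.02 over all genes. Since TTN, TNNT2, MYH6 and MYL7 had separated the groups, this direction comes with the choice of cells. Of 24 calcium handling and ion channel genes, 12 reached 20 CPM and 10 were lower, with a median of -2.17. Among them were PLN, the phospholamban that restrains the calcium pump, at 43.5 against 543 CPM, and TRDN, which encodes triadin of the calcium release complex, at 7.38 against 117 CPM. RYR2, the calcium release channel itself, stood at 6.33 against 47.7 CPM. RYR2, TRDN, JPH2, SLN and SLC8A1 reached 20 CPM in four-gene-high cells only. The direction of this list, too, comes with the choice of cells. KCNH2, the hERG potassium channel, did not reach 2-fold, at 32.4 CPM (27.0 to 38.7) against 43.3 CPM (37.9 to 49.2).

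Against titin-low cells, 286 of 5880 genes (4.86%) were 2-fold or more apart, 181 (3.08%) higher and 105 (1.79%) lower in members. TTN, a sarcomere gene, had separated these groups, so a higher level of other sarcomere genes comes with the choice of cells. Here 15 sarcomere genes reached 20 CPM and 11 of them were higher, with a median log2 ratio of 1.68 beside 0.08 over all genes. Of these 11, ACTC1, ACTA1 and TNNC1 were under 2-fold once the 5 members highest in each gene were left out, TNNC1 at 14.6 CPM beside 9.40 CPM in titin-low cells. The other 8 were MYL4, TNNI1, TPM1, LDB3, NEBL, UNC45B, HSPB7 and SMYD1. Of these, LDB3, UNC45B, HSPB7 and SMYD1 reached 20 CPM in members only. Of 7 calcium and channel genes at 20 CPM, 4 were higher, namely PLN, HRC, TECRL and KCNH2, each at 20 CPM in members only. The ratios of TTN to NEBL in members and four-gene-high cells were 5.35 and 5.18 UMIs of TTN per UMI of NEBL. For TNNI1 these ratios were 1.22 and 0.889, and for MYH6, also used by the rule, 12.1 and 2.32. TTN, which enters each of these ratios, was used by the rule, so they come in part with the choice of cells.

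**Figure D3:**
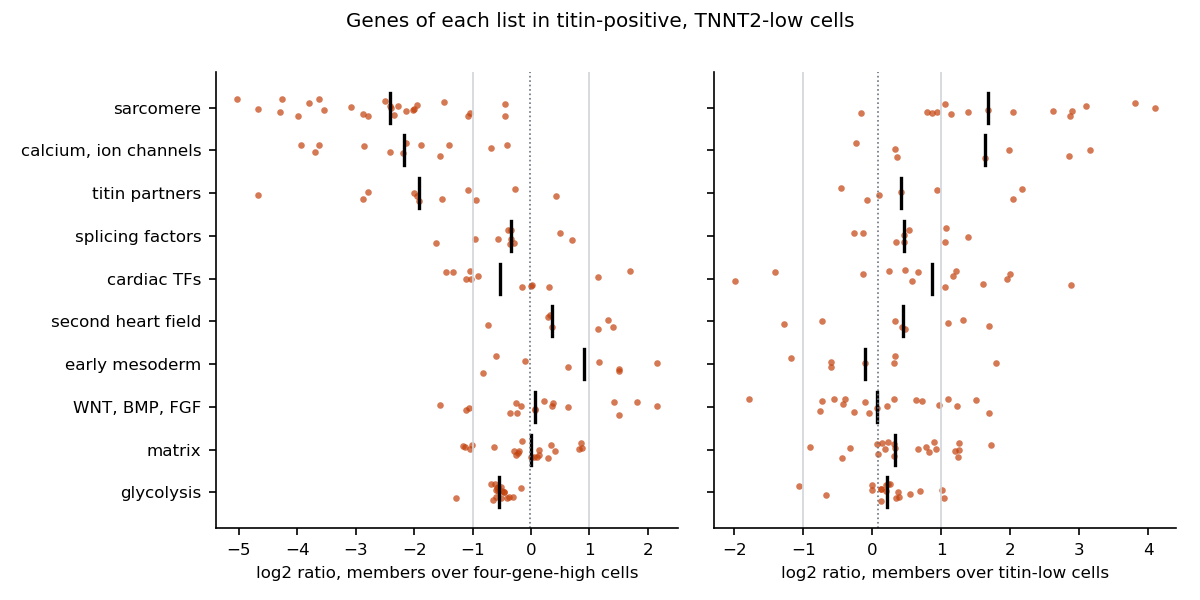
Each point is a gene at 20 CPM or more in at least 1 of the compared groups, placed by its log2 ratio of members over four-gene-high cells (left) or over titin-low cells (right), in rows by gene list. Black bars are list medians, the dotted line is the median over all genes (-0.02 and 0.08), and grey lines mark 2-fold; the sarcomere median is -2.42 on the left and 1.68 on the right.

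Cardiac transcription factors differed from one another. MEF2C, a MADS-box activator of muscle genes, stood at 327 CPM (309 to 345) in members, 84.1 CPM in titin-low cells, 15.9 CPM in EPCAM cells and 612 CPM in four-gene-high cells. A MEF2C UMI was found in 63.5% of thinned members, against 3.06% of EPCAM cells and 85.8% of four-gene-high cells. MYOCD, the serum response factor coactivator myocardin, stood at 87.8 CPM (78.6 to 97.8) in members, 11.9 CPM in titin-low cells and 191 CPM in four-gene-high cells. HAND2, a bHLH factor of the right ventricle and outflow tract, was at 94.4 CPM (84.9 to 105) in members, 23.7 CPM in titin-low cells and 76.3 CPM (69.0 to 84.0) in four-gene-high cells. GATA6 was at 63.5 CPM in members and 63.6 CPM in four-gene-high cells, with 20.9 CPM in titin-low cells. GATA4, a zinc finger partner of NKX2-5, stood lower at 26.6 CPM (21.7 to 32.4) in members, with 67.5 CPM in four-gene-high cells and 11.9 CPM in titin-low cells.

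NKX2-5, a homeodomain factor of committed cardiac cells, stood at 98.1 CPM (88.4 to 109) in members. Its level was 268 CPM in four-gene-high cells, 188 CPM in TNNT2-positive cells and 42.2 CPM in titin-low cells. ISL1, the LIM-homeodomain factor of second heart field progenitors, ran the other way, with 141 CPM (129 to 154) in members, 105 CPM (101 to 110) in titin-low cells, 76.7 CPM in TNNT2-positive cells and 53.3 CPM (47.3 to 59.9) in four-gene-high cells. EPCAM cells held 75.6 CPM of ISL1. An ISL1 UMI without one of NKX2-5 was found in 29.1% of thinned members (23.3% to 35.5%), against 7.53% of four-gene-high cells, 24.6% of titin-low cells and 18.7% of EPCAM cells. NKX2-5 without ISL1 was found in 15.2% of members and 47.3% of four-gene-high cells. Both were found in 10.4% of members and 10.5% of four-gene-high cells.

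Over the 27 cardiac transcription factors, 12 reached 20 CPM against four-gene-high cells. HAND1 and HEY1 were 2-fold or more higher in members, and NKX2-5, GATA4, MEF2A, MYOCD and SMARCD3 were lower. Over all genes, 1.55% were higher and 3.87% lower. HEY1, a Notch target repressor, stood at 103 CPM (93.1 to 114) in members and 31.7 CPM (27.1 to 36.8) in four-gene-high cells. Against titin-low cells 14 were measured. NKX2-5, GATA4, GATA6, MEF2C, HAND2, MYOCD and IRX3 were higher in members, and TBX3 and HEY2 were lower. Of these, GATA4 and MYOCD reached 20 CPM in members only, and TBX3 and HEY2 in titin-low cells only. Over all genes of that comparison, 3.08% were higher and 1.79% lower. TBX5 and TBX20 were under 2 CPM in members and were not compared.

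In the list of second heart field and pharyngeal mesoderm, 7 of 19 genes reached 20 CPM against four-gene-high cells, and ISL1 and FOXC1 were among those 2-fold or more higher in members. FOXC1, a forkhead factor of mesoderm, stood at 57.2 CPM in members, 25.7 CPM in four-gene-high cells and 45.4 CPM in titin-low cells. FGF10, a ligand used as a marker of the anterior second heart field, was at 120.2 CPM (109 to 132) in members, 94.2 CPM (86.1 to 103) in four-gene-high cells and 37.2 CPM in titin-low cells. It was nearly absent from EPCAM cells, at 5.77 CPM. Of the early and cardiac mesoderm list, 8 of 18 genes reached 20 CPM against four-gene-high cells, and SNAI2, FLRT3, DKK1 and BMP4 were higher in members. Over all genes of that comparison, 1.55% were higher. Titin-low cells held 58.2 CPM of BMP4 and 48.6 CPM of DKK1, beside 53.8 and 60.1 CPM in members. Against titin-low cells the list had a median log2 ratio of -0.11, with only PDGFRA 2-fold higher and only KDR 2-fold lower. PDGFRA, the platelet-derived growth factor receptor of cardiac mesoderm, stood at 230.2 CPM (215 to 246) in members, 248 CPM (235 to 262) in four-gene-high cells and 66.6 CPM in titin-low cells.

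Ligands, antagonists and targets of the WNT, BMP and FGF pathways gave no single direction. Of 36 genes, 17 reached 20 CPM against four-gene-high cells, 4 were higher and 3 were lower, with a median log2 ratio of 0.08. Over all genes of that comparison, 1.55% were higher and 3.87% lower. DKK1 and BMP4 reached 20 CPM in members but not in four-gene-high cells. DKK1, a secreted WNT antagonist, stood at 60.1 CPM (52.6 to 68.5) in members and 13.4 CPM (10.5 to 16.9) in four-gene-high cells, a 4.44-fold difference that was the largest upward among genes at 50 CPM or more. The BMP targets ID1 and ID3, which encode inhibitors of bHLH factors, stood at 803 and 631 CPM in members and 228 and 236 CPM in four-gene-high cells. ID1 was higher still in titin-low and EPCAM cells, at 1352 and 1381 CPM. BMP4 was at 53.8 CPM in members and 18.8 CPM in four-gene-high cells, but 5 members held 33.3% of its UMIs and without them it stood at 37.0 CPM. EPCAM cells held 78.8 CPM of DKK1 and 111 CPM of BMP4. The lower genes were WNT5A, BMP2 and BMP7. BMP2 stood at 38.5 CPM in members and 114 CPM in four-gene-high cells.

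The other genes highest in members against four-gene-high cells were IFI16, ANXA1, IGFBP5, MARCKS, TFPI, NPY, ZFP36L2, MEST and SOCS3, by 2.70-fold to 4.13-fold. MARCKS, an actin-binding substrate of protein kinase C, stood at 157 CPM in members, 51.3 CPM in four-gene-high cells and 295 CPM in titin-low cells. MEST, an imprinted gene of mesoderm, stood at 139 CPM in members, 49.6 CPM in four-gene-high cells and 181 CPM in titin-low cells. EPCAM cells held more than members of IFI16 (200.5 against 90.7 CPM), NPY (579 against 165 CPM), ZFP36L2 (320.02 against 217 CPM) and MARCKS (180 against 157 CPM), and by a smaller margin of IGFBP5 and ANXA1. Only TFPI, MEST and SOCS3 of these 9 were lower in EPCAM cells. For NPY, 5 members held 35.4% of the UMIs in members. At the other end stood LAD1, NPPA, MYL3, CTD-2545M3.8, TNNC1, SMPX, TRDN, AC079602.1, ACTC1, SLN, PLN, CSRP3, ACTA1, PPP1R12B and MYL4, which were 8.47-fold to 45.6-fold lower in members. SMPX, a small muscle protein of the costamere, stood at 15.0 CPM in members, 244 CPM in four-gene-high cells and 2.44 CPM in titin-low cells.

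Among titin partners and muscle splicing factors, few genes were called. Of 17 partners, 7 reached 20 CPM against titin-low cells, and NEBL and TRIM55 were higher. TRIM55, a ubiquitin ligase that binds titin near the M-band, stood at 42.7 CPM (36.4 to 49.8) in members and 9.54 CPM in titin-low cells. TCAP, which caps titin at the Z-disc, was at 1.32 CPM in members and 12.3 CPM in four-gene-high cells. Of 12 splicing factors, RBM20, RBM24 and CELF2 were higher than in titin-low cells. RBM20, which governs the splicing of titin, stood at 54.6 CPM (47.4 to 62.5) in members, 38.8 CPM (33.7 to 44.4) in four-gene-high cells, 26.3 CPM in titin-low cells and 3.85 CPM in EPCAM cells. RBM24 stood at 20.04 CPM in members and 62.8 CPM in four-gene-high cells, and it was the only splicing factor of 10 measured that was 2-fold lower than in four-gene-high cells. TTN-AS1, annotated antisense to TTN, stood at 7.38 CPM in members and 2.42 CPM in four-gene-high cells, where reads of the overlapping pair may not be told apart.

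Genes raised most over titin-low cells were DGKI, RGS4, TNNI1, MYOCD, SORBS2, MYL4, ACTA2, NEBL, HAND2 and MEF2C, by 3.89-fold to 11.3-fold. RGS4, a regulator of G protein signalling, stood at 156 CPM (143 to 169) in members, 164 CPM (153 to 175) in four-gene-high cells and 16.2 CPM in titin-low cells. DGKI, a diacylglycerol kinase, stood at 53.3 CPM in members, 362 CPM in four-gene-high cells and 4.70 CPM in titin-low cells. SORBS2, a Z-disc adaptor, stood at 64.9 CPM in members, 233 CPM in four-gene-high cells and 8.92 CPM in titin-low cells. The genes most lowered against titin-low cells were SFRP2, TTR, CST1, HHEX, DLK1, MIR302B, APOA2, CYP26A1, MT1X and CRABP1. Of these, TTR, CST1, HHEX, DLK1, MIR302B, APOA2, CYP26A1 and MT1X were higher in EPCAM cells than in titin-low cells, which share 189 cells.

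Matrix genes had a median near that of all genes against four-gene-high cells, with some lower. Of 27 genes, 21 were measured in each of these comparisons. Against four-gene-high cells 0 were 2-fold higher and 4 of 21 were lower, beside 3.87% of all genes, with a median log2 ratio of 0.00. The lower genes were COL1A2, at 147 against 321 CPM, FBN2, NID2 and HSPG2. HAS2, VCAN, COL1A1, COL5A1 and NID2 were higher than in titin-low cells. HAS2, the synthase of hyaluronan in cardiac jelly, stood at 159 CPM in members, 184 CPM in four-gene-high cells and 69.5 CPM in titin-low cells. VCAN, the proteoglycan versican, stood at 571, 665 and 239 CPM in the same order. All 18 glycolysis genes were measured, with a median log2 ratio of -0.54 against four-gene-high cells and 0.22 against titin-low cells. Only PFKP, a phosphofructokinase, was 2-fold lower than in four-gene-high cells, at 97.04 against 237 CPM.

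To place each gene, its level in members was put on a range in which titin-low cells were 0% and four-gene-high cells 100%. This was done for the 89 genes outside the rule that were named or listed, reached 20 CPM in four-gene-high cells and were there at least 2-fold above titin-low cells. TTN itself lay at 24.9% of this range. Of the 89 genes, 42 lay above TTN, 21 lay under 10% and 20 lay at 50% or more. Genes named from outside the lists had been picked for their large ratios between these same groups of cells. These counts therefore depend in part on that choice and do not describe all genes. The 24 sarcomere genes had a median of 14.7% and ran from 1.20% (MYOM1, a titin-binding M-band protein) to 55.2% (PDLIM3). These ends rest on few UMIs, and without the 5 highest members of each gene MYOM1 lay at -3.20% and PDLIM3 at 18.7%. The 12 calcium and channel genes had a median of 11.2%. The 9 cardiac transcription factors had a median of 42.5%, from 23.5% for MEF2A to 134% for HAND2, and the 9 matrix genes one of 71.3%. NKX2-5 lay at 24.7%, TPM1 at 27.6% and TNNI1 at 16.6%. The lists were of unequal size, and their genes share the same cells, so these medians are a description.

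**Figure D4:**
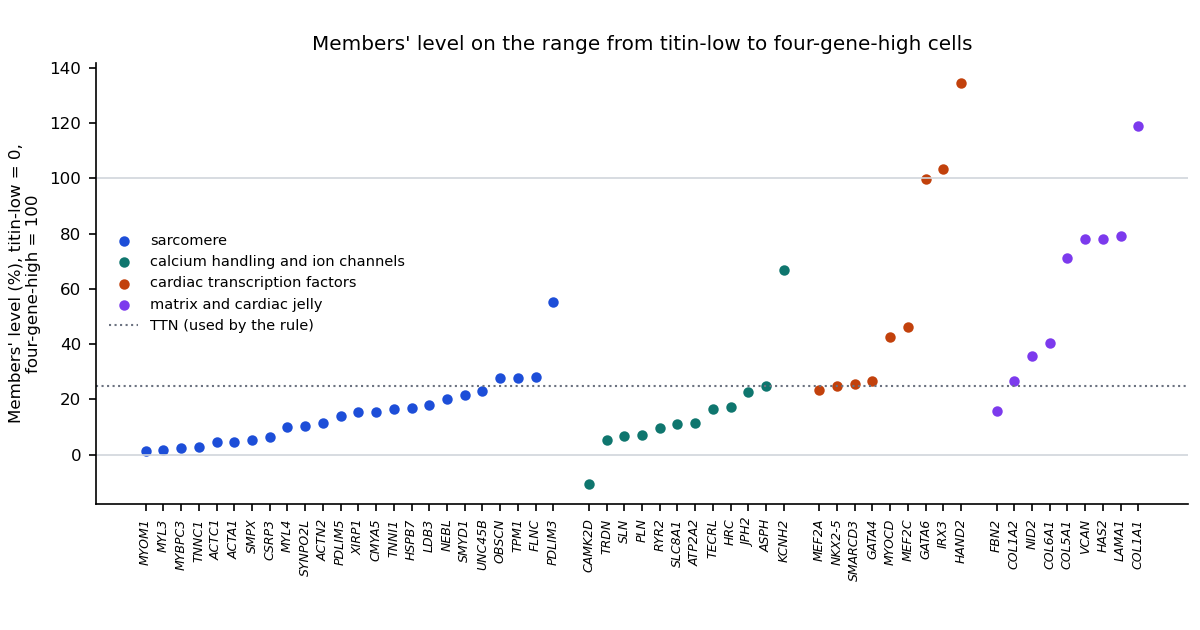
Level of each gene in the members as a percent of the range from titin-low cells (0) to four-gene-high cells (100), for genes of 4 lists sorted within each list. TTN, used by the rule, is the dotted line at 24.9%; 24 sarcomere genes have a median of 14.7%, and 9 cardiac transcription factors one of 42.5%.

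TNNT2-positive cells, which differ from the members in the TNNT2 limit, were the group with the fewest genes apart. Of 5810 genes at 20 CPM, 44 (0.757%) were 2-fold or more apart, 36 (0.62%) lower and 8 (0.138%) higher in members. Of 19 sarcomere genes measured, 9 were lower, namely ACTA1, MYL4, MYL3, TNNC1, TNNI1, CSRP3, SMPX, CMYA5 and HSPB7. RYR2, PLN, TRDN, SLN and TECRL were lower among 10 calcium and channel genes. TNNT2, a sarcomere gene, had separated these groups, so the direction of both lists comes with the choice of cells. MYL3, CSRP3, SMPX, CMYA5, RYR2, TRDN and SLN reached 20 CPM in TNNT2-positive cells only. SLN, the atrial pump inhibitor sarcolipin, stood at 16.3 against 101 CPM, with 69.4% of its UMIs in 5 members. No cardiac transcription factor reached 2-fold in this comparison, and MEF2C stood at 327 against 423 CPM. At 50 CPM or more, the genes higher in members by 2-fold were MT1G, BMP4 and IFI16. The metallothionein MT1G had 545 of its 650 UMIs in 2 members, and without the 5 highest cells it stood at 11.6 CPM against 49.9 CPM in TNNT2-positive cells. ISL1 was 1.84-fold higher in members, with a log2 ratio of 0.88 (0.70 to 1.06). COL2A1, a fibrillar collagen, stood at 413 against 248 CPM. TTR, a hepatic carrier protein, was lower at 8.97 against 56.7 CPM, and EPCAM cells held 509 CPM of it.

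TTN was lower in members too, with a log2 ratio of -0.58. In an added comparison of 61 members and 123 TNNT2-positive cells with 10 to 20 TTN UMIs per 10000, TNNI1 stood at 977 against 1842 CPM and PLN at 67.6 against 234 CPM. MYL4 stood at 255 against 534 CPM, and NKX2-5 at 136 against 210.5 CPM. Several genes 2-fold lower without this matching were under 2-fold with it. CMYA5, TNNC1, HSPB7, MYL3 and TNNI1 had log2 ratios of -0.098, -0.52, -0.54, -0.69 and -0.91, and SLN and TECRL -0.76 and -0.75. ACTA1, MYL4, CSRP3, SMPX, RYR2, PLN and TRDN stayed 2-fold or more lower. NEBL, TPM1 and MEF2C did not reach 2-fold in either comparison. ISL1 stood at 150 against 80.6 CPM, with a log2 ratio of 0.90 (0.56 to 1.22). ANXA1, a phospholipid-binding protein, stood at 105 against 48.7 CPM.

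Within the members, cells were ordered by TTN per 10000 UMIs and split into tertiles of 77, 77 and 76 cells, which ran from 1.49 to 5.58, from 5.71 to 10.6 and from 10.6 to 44.2. The median depth was 16926, 14996 and 14405 UMIs in turn. TNNI1 stood at 434, 803 and 1181 CPM from the lowest to the highest tertile. NEBL stood at 107, 158 and 284 CPM, and LDB3, a Z-disc linker, at 5.33, 22.2 and 42.0 CPM. NKX2-5 stood at 51.3, 112 and 147 CPM, and HAND2 at 54.6, 123 and 118 CPM. MEF2C, in contrast, was already at 244 CPM in the lowest tertile and reached 452 CPM in the highest. These genes had a higher level in the highest than in the lowest tertile, with intervals of the ratio that left out 1.

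ISL1 stood at 163, 117 and 138 CPM, with a log2 ratio of -0.24 (-0.54 to 0.06) between the highest and the lowest tertile. BMP4 was lower in the highest tertile, at 33.1 against 69.3 CPM. HEY1 stood at 121, 107 and 76.0 CPM. KDR, the receptor of vascular endothelial growth factor that also marks cardiac mesoderm, stood at 36.6, 5.97 and 6.26 CPM. Of its 69 UMIs in members, 30 came from 1 cell, and 206 members had none. MYH6 stood at 46.0, 48.6 and 150.2 CPM, and MYL7 at 188, 192 and 244 CPM. KRT18, a keratin of simple epithelia, stood at 1277, 735 and 767 CPM, and DLK1, which EPCAM cells held at 1557 CPM, at 199, 77.6 and 63.5 CPM. Their part in the differences between tertiles was not tested.

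**Figure D5:**
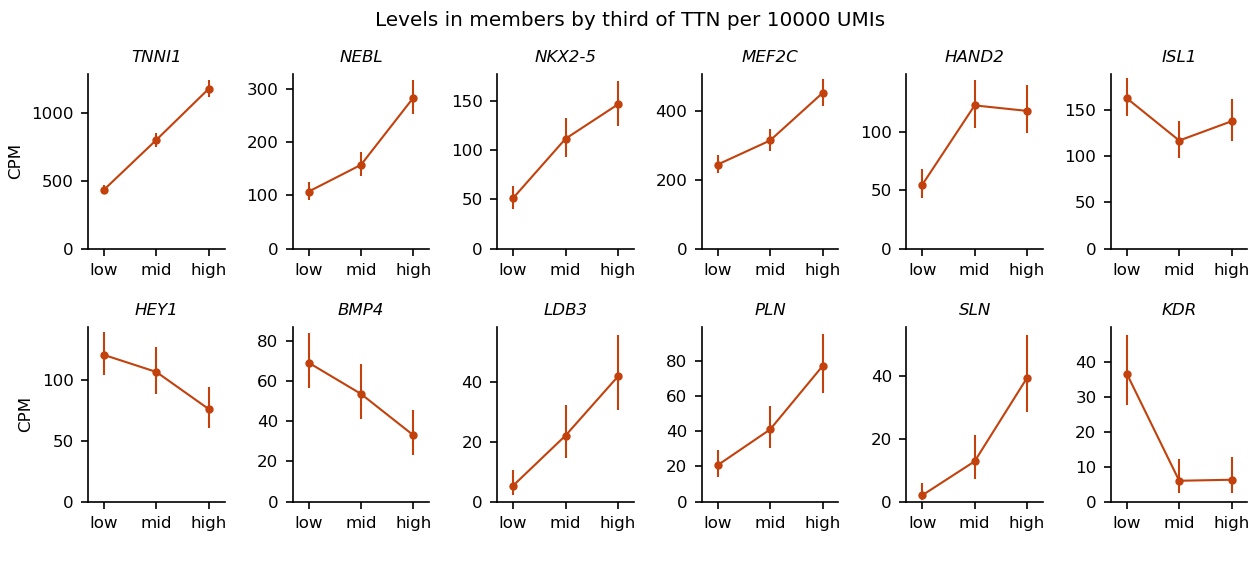
Level in CPM (linear axes from 0, a scale for each gene) of 12 genes in the tertiles of the members with the lowest, middle and highest TTN per 10000 UMIs, with exact Poisson 95% intervals that cover counting error only. TNNI1 goes from 434 to 1181 CPM and NKX2-5 from 51.3 to 147 CPM, BMP4 from 69.3 to 33.1 CPM, and ISL1 stays between 117 and 163 CPM.

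Markers of other cell types were read as lists. Of 10 endothelial markers, CDH5 and ECSCR were at 0 in the members (0 of 230 cells, with an exact 95% upper limit of 1.59% of cells with a UMI, and of 1.30% when 3 cells are taken as the limit of a count of 0), only EGFL7 reached 20 CPM, and the list summed to 79.1 CPM beside 89.7 CPM in four-gene-high cells and 158 CPM in titin-low cells. The 10 endoderm markers summed to 1377 CPM in members, 1651 CPM in four-gene-high cells, 1822 CPM in titin-low cells and 4375 CPM in EPCAM cells, and 9 of them were 2-fold or more lower than in titin-low cells. EPCAM, KRT19 and CLDN6 were the endoderm markers at 20 CPM or more, and 2 members had at least 5 UMIs of EPCAM. The median member had 9.34 endoderm marker UMIs per 10000, beside 12.8 in four-gene-high cells and 8.34 in titin-low cells, so the median member lay above titin-low cells while the summed level lay below them. The 8 smooth muscle markers summed to 1084 CPM in members, 623 CPM in titin-low cells and 2424 CPM in four-gene-high cells, with MYOCD, ACTA2, TAGLN, CNN1 and CALD1 at 20 CPM or more. MYH11, the defining smooth muscle myosin, stood at 0.527 CPM.

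The 8 fibroblast markers summed to 524 CPM in members, 423 CPM in four-gene-high cells and 249 CPM in titin-low cells, of which COL1A1 gave 404 CPM in members. The 8 pluripotency markers summed to 160 CPM, beside 116 CPM in four-gene-high cells and 375 CPM in titin-low cells. The 8 surface ectoderm markers summed to 1938 CPM and the 8 epicardial markers to 1228 CPM, with TFAP2B and TBX18 at 0. Most of the first sum came from the keratins KRT8 (950.3 CPM) and KRT18 (959 CPM), and most of the second from KRT19 (1216 CPM). Of 11 skeletal muscle markers, MYF5, MYOG, PAX7, TNNI2 and TNNT3 were at 0 and only ACTA1 reached 20 CPM. Neural crest and neural markers summed to 0.527 CPM and blood markers to 5.54 CPM. In the 148 members with no UMI of EPCAM, FOXA2, CDH5 or ESAM, 239 genes were 2-fold or more lower and 104 higher than in four-gene-high cells, and 199 were higher and 129 lower than in titin-low cells. The part of other cell types in single genes was not tested beyond these values.

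The same limits were applied to the later libraries. They were met by 169 of 3585 cells at D14 (4.71%, 4.04% to 5.46%) and by 9 of 1946 cells at D21 (0.462%, 0.212% to 0.876%). The TNNT2 level of EPCAM cells differed between the libraries, with 28.0 CPM on D8, 53.9 CPM on D14 and 254 CPM on D21. Whether this was RNA free in the droplets was not tested, because no empty droplets were measured. A TNNT2 count of at most 1 UMI was met by 265 of 294 EPCAM cells at D8, 142 of 213 at D14 and 2 of 202 at D21. At D14 the cells chosen by the limits held 863 CPM of TTN and 48.0 CPM of TNNT2. Their MYH6 level was 462 CPM, beside 65.6 CPM in EPCAM cells of D14. ISL1 stood at 279 CPM in them, 191 CPM in titin-low cells and 69.1 CPM in four-gene-high cells of D14. HAND2 stood at 565, 375 and 189 CPM in the same order, and NKX2-5 at 404, 278 and 511 CPM. COL3A1, a fibrillar collagen of mesenchyme, stood at 887 CPM in them, 880.3 CPM in titin-low cells and 195 CPM in four-gene-high cells of D14, whereas at D8 it was at 22.4 CPM in the members.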

How the data were processed

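The authors deposited 1 table of raw UMI counts for 32738 genes and 17327 barcodes of 3 single-cell libraries, before their filter on cells, and the day was read from the end of each barcode name. The submitters' processing notes name Cell Ranger, Seurat 3.2.1 and the hg19 build.

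D8 barcodes (3563) with 2001 to 7499 genes and under 10% mitochondrial UMIs were kept, which left 2657 cells with 4554 to 95021 UMIs. UMIs were summed per group. Genes at 20 CPM or more in 1 of 2 groups were compared as a ratio with 1 UMI added, and 2-fold was the limit for counting a gene. With 1 library per day no test was made. Intervals of ratios come from the exact split of the summed counts, and intervals and thinning (4000 UMIs, fixed seed) were tested on simulated data. The genes named are those of the rule and of the lists, and the 15 (four-gene-high) or 10 (other groups) largest ratios each way at 50 CPM or more, without ribosomal protein genes. The members and the lists were chosen with earlier results of these data known, and the range from titin-low to four-gene-high cells and the comparison at equal TTN were added after seeing the data. Barcode sequences shared between libraries numbered 25, 52 and 59 for the 3 pairs. Scrublet in scanpy 1.11.5 marked 1 D8 cell (0.0376%), which is too few to take as a working call, so no cell was removed. The median score was 0.0563 in members, 0.0420 in four-gene-high cells and 0.0649 in TNNT2-positive cells. Python 3.11.15, numpy 2.4.6, scipy 1.17.1, matplotlib 3.10.9 and edgeR 4.0.16 (TMM factors) in R 4.3.3 were used. The alternatives tried are given with the additional observations.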

Additional observations from a re-analysis of the deposited data

How the results depend on the processing

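The share of members and the counts of genes 2-fold apart were recomputed under other settings, of which equal TTN, barcodes in no other library and leaving out the 5 highest members of a gene were chosen after seeing the data. No paired analysis was possible because there was 1 library per day and the groups are cells of the same library. The share of members (8.66%) was 12.3% with at least 3 TTN UMIs, 5.38% with at least 10, 5.23% with 0 TNNT2 UMIs and 10.2% with no limit on cycling genes. In the counts below, members over four-gene-high, titin-low and TNNT2-positive cells come in this order, and a comparison not named kept its count within 1.5 times. With a filter of 10 CPM, 175 genes were higher than in four-gene-high cells, 196 lower than in titin-low cells, and 24 higher and 64 lower than in TNNT2-positive cells. With 100 CPM, fewer genes were tested, and the higher and lower counts were 13 and 89, 38 and 19, and 1 and 9. With no filter they were 1937 and 1145, 1746 and 1030, and 1174 and 684. With 10 CPM added to each level they were 31 and 144, 86 and 61, and 3 and 21. With the EPCAM cell level subtracted they were 157 and 652 against four-gene-high cells, 684 higher than in titin-low cells, and 83 and 157 against TNNT2-positive cells. In thinned cells 168 genes were higher than in four-gene-high cells, and 70 were higher and 70 lower than in TNNT2-positive cells. With no limit on cycling genes 159 were higher than in four-gene-high cells and 65 than in TNNT2-positive cells. The 8 genes higher than in TNNT2-positive cells became 5 with a TTN limit of 4 per 10000 UMIs, 3 with 0 TNNT2 UMIs, 21 in cells of 10000 to 20000 UMIs and 67 at equal TTN. Of the genes named as 2-fold apart, 81 of 81, 76 of 79 and 19 of 21 kept their direction in every setting that gave a value. The exceptions against titin-low cells were APOA2 (log2 ratio 0.0047 with at least 3 TTN UMIs), ACTC1 (-0.0082 with 0 TNNT2 UMIs) and APOA1 (0.092 in cells of 10000 to 20000 UMIs). Those against TNNT2-positive cells were MT1G (-0.017 with 0 TNNT2 UMIs and -1.30 at equal TTN) and TTR (0.77 in cells of 10000 to 20000 UMIs). The cause was not tested. Where the EPCAM level left both groups at 0, no ratio was made.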
